A study of Homo sapiens with 3 samples.

Results

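Kinesins and the genes that build and time the mitotic spindle were followed in the human colon adenocarcinoma line SW480, an established cell line, after knockdown of the RNA-binding protein RBMS1. The members were every protein-coding kinesin gene (KIF followed by a digit, and KIFC1 to KIFC3, with KIFBP left out) and 22 named genes of mitosis. This rule gave 64 symbols, of which 55 had a value, on 88 coding (NM) RefSeq transcripts, out of 11484 genes and 17865 such transcripts in all. KIF2B, KIF4B, KIF5A, KIF5C, KIF6, KIF12, KIF17, KIF19 and KIF25 were not analysed here.

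Total RNA was sequenced 48 hours after transduction, in 2 libraries with control short hairpin RNA (shControl) and 1 with a hairpin against RBMS1 (shRBMS1). All cells were grown in McCoy's medium with serum and all received a hairpin, and the sources used here do not say if both controls carry the same one. The only values used are the authors' log2 fold changes per transcript, shRBMS1 over shControl, so levels per library, their spread and the depth behind them are unknown. With 1 knockdown library there is no replicate check and no test, and every value below describes these libraries. RBMS1 itself lay at −1.49 as the median of its transcripts, 35.6% of control, and since the direction of the ratio was set from it, its sign checks nothing. Of 7 epithelial colon markers 6 had a value, and of 4 markers of leukocytes, fibroblasts and endothelial cells 0 had one.

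Kinesins are motors that walk along microtubules on energy from ATP. One set works in mitosis: it separates the spindle poles, moves chromosomes to the equator, shortens microtubule ends and bundles the midzone where the cell will divide. Another set carries vesicles, mitochondria and other cargo through the cytoplasm between divisions. Around the mitotic motors stand cyclin B and CDK1, the Aurora and Polo kinases, the kinetochore that holds chromosomes to microtubules, and the checkpoint that delays anaphase until every chromosome is attached. RBMS1 binds A+U-rich sequence in RNA, and the comparison shows how the transcripts of this machinery stood when it was reduced.

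Mitotic genes as a class carry a known promoter signature, and it is printed first because it was frequent in mitotic and rare in transport kinesins, a difference the rule did not use. The cell cycle genes homology region (CHR), with the core TTTGAA or TTCGAA, is bound by the DREAM and MuvB complexes, and the CCAAT motif is bound by NF-Y. Both were searched on both strands of RefSeq promoters (GRCh38.p14, 250 bases before to 50 after each start site). The windows below read 5′ to 3′ in the direction of the gene, with CHR cores and CCAAT motifs of either strand in capitals. The first 4 are mitotic kinesins, CCNB2 and PLK1 stand for the spindle genes, and KIF5B is the single transport kinesin with a core.
KIF23 promoter, chr15:69414234-69414319 (plus strand): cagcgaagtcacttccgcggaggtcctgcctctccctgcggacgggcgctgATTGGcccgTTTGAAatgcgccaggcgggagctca
KIF11 promoter, chr10:92593042-92593127 (plus strand): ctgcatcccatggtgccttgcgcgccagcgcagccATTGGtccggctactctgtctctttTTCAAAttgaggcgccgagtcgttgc
KIF4A promoter, chrX:70290010-70290095 (plus strand): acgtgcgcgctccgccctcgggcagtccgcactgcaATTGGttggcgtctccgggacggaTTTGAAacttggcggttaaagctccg
KIF14 promoter, chr1:200620725-200620810 (minus strand): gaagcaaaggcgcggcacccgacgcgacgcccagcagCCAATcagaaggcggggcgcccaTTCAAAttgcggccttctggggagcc
CCNB2 promoter, chr15:59105057-59105142 (plus strand): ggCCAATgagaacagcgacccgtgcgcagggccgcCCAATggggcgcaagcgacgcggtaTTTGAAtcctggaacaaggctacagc
PLK1 promoter, chr16:23678800-23678885 (plus strand): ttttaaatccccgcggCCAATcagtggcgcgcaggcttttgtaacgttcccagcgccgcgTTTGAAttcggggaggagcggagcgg
KIF5B promoter, chr10:32056540-32056625 (minus strand): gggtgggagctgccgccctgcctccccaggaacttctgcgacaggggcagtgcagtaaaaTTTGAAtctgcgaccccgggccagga

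A CHR core lay in a promoter of 10 of the 12 mitotic kinesins (83.3%), all but KIF20A and KIF2C. Their 11 cores all began within 60 bases of a start site, with a median position of −10, counting the first transcribed base as 0. Of 18 spindle genes with a promoter sequence 14 held a core (77.8%), 12 of them within 60 bases. AURKA, BUB3, TPX2 and TTK are the spindle genes with no promoter matched. Transport kinesins differed from this: 1 of 10 held a core, KIF5B at −140, and 0 of 10 within 60 bases. Over the 9526 measured genes with a promoter, 1475 (15.5%) held a core and 499 (5.24%) held one within 60 bases, and 16.4% of 35116 RefSeq promoters held one. CCAAT was found in 10 of 12 mitotic kinesins, 3 of 10 transport kinesins and 43.6% of measured genes. A match describes the letters of these windows and is not a measured binding site.

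**Figure D1:**
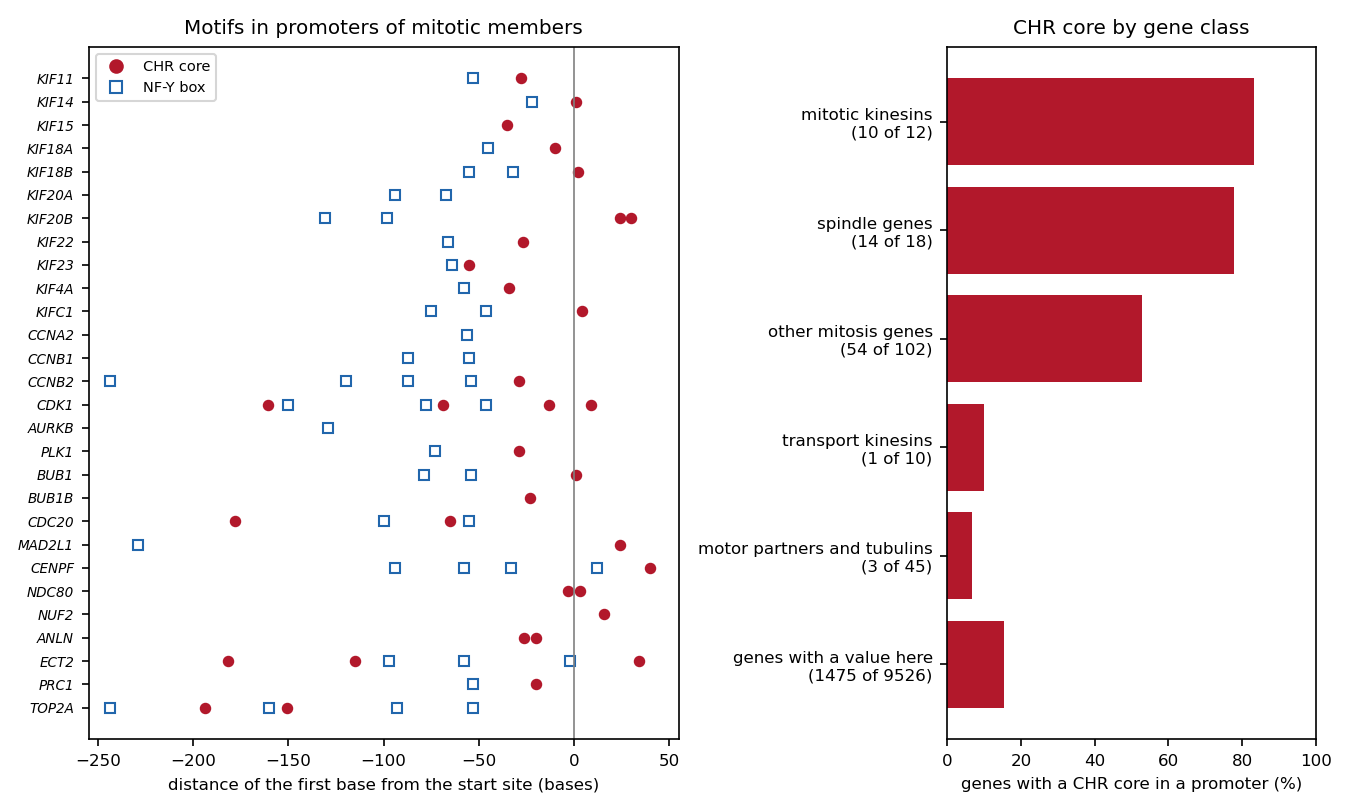
Left, position of each CHR core (red) and NF-Y box (blue) in bases from the start site, for mitotic kinesins and spindle genes with at least 1 of them; right, percent of genes with a CHR core in a promoter, by class. Cores of the mitotic kinesins cluster at the start site. The classes run from 83.3% in mitotic kinesins to 10% in transport kinesins and 6.67% in motor partners and tubulins, beside 15.5% in all measured genes.

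Genes with and without a core were then set side by side for their fold changes, without a test. Mitotic kinesins with a core had a median of 0.21 on the log2 scale (n = 10), and the pair without had one of 0.04. Spindle genes with a core stood at 0.02 (n = 14) and the 4 without at −0.07. The same medians over all genes were 0.03 with a core (n = 1475) and 0.01 without (n = 8051).

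The members as a group stayed near the control level. Their median was 0.07, with 32 above 0 and 23 below, and 49 of 55 (89.1%) lay within 0.5 of 0, beside a median of 0.00 and 77.4% within 0.5 for all 11484 genes. By class, 8 of 12 mitotic kinesins (66.7%), 13 of 14 transport kinesins (92.9%) and all 22 spindle genes lay within 0.5. At or below −1 were 2 members, KIF27 and KIF23, where 4.06% of all genes were, and at or above 1 was KIF1A, where 3.62% were. Each of these 3 genes has a pair of measured transcripts that lay far apart. Of the 31 members with 1 coding transcript, 0 lay at or beyond 0.5 in either direction, against 19% of the 7299 such genes in all. Those 31 ran from −0.44 for KIF20A to 0.36 for KIF26A in the authors' deposited table.

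Mitotic kinesins stood slightly above transport kinesins, by less than the spread within either class. The 12 measured mitotic kinesins had a median of 0.21, 116% of control, with 8 above 0. The 14 transport kinesins had a median of 0.02, 101% of control, with 7 above 0. The medians differed by 0.19, and 9 of the 12 mitotic kinesins lay within the range of the transport kinesins. That range reached 4.90 through KIF1A alone, and the next highest transport kinesin was KIF13B at 0.20. Of the mitotic kinesins, only KIF11, KIF18A and KIF4A lay between KIF1B at −0.37 and KIF13B. KIF14, KIF2C, KIF22, KIF20B, KIFC1 and KIF15 lay above KIF13B, and KIF20A, KIF18B and KIF23 lay below KIF1B. In the other direction, 13 of the 14 transport kinesins lay within the range of the mitotic ones. When each gene was represented by its least changed transcript, the difference was 0.08 and both medians lay just below 0.

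**Figure D2:**
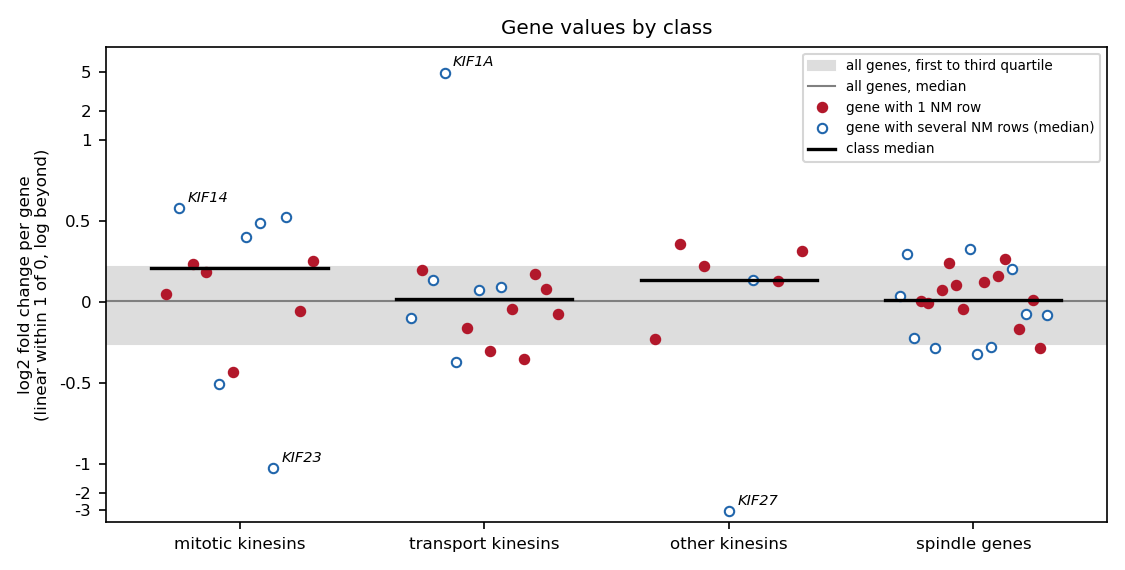
Log2 fold change per gene (vertical axis, linear within 1 of 0 and logarithmic beyond) by class; red points are genes with 1 coding transcript, open blue points are medians of several, black bars are class medians, and the grey band spans the quartiles of all genes, −0.26 to 0.22. The 22 spindle genes sit within 0.5 of 0, while KIF14, KIF2C, KIF18B, KIF23, KIF27 and KIF1A, all with several transcripts, stand outside.

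Of the mitotic kinesins that build and move the spindle, most with a single coding transcript stayed close to control. KIF11, the plus-end motor that pushes the poles apart and is also called Eg5 (chr10:92593130-92655395, GRCh38), was at 104% of control, or 0.05 in the authors' deposited table. KIF15, which can share that task, had 0.23 in the authors' deposited table. The minus-end motor KIFC1, which focuses spindle poles and clusters extra centrosomes, lay at 0.25 in the authors' deposited table. For KIF18A, which damps chromosome movement at the plate, the authors' deposited table gave 0.19. KIF4A, a chromosome-arm motor on chromosome X, stood at −0.05 in the authors' deposited table. Its intronless copy KIF4B could share reads with it, so that value is uncertain. KIF20A, needed at the midzone for cytokinesis, had the lowest value of those with 1 transcript, and the authors' deposited table puts it at −0.44 (73.9% of control).

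The other 6 mitotic kinesins have several coding transcripts, and 3 of these genes had transcripts more than 1 apart. Across the 24 members with several transcripts this was so for 9 (37.5%), against 48.4% of 4185 genes in all, and 17 of the 24 had transcripts on both sides of 0, as did 2760 of the 4185. Of 18 members with 2 transcripts, 7 had them more than 1 apart and the median range was 0.68, beside 36.6% and 0.69 for the 2770 such genes in all. Of 5 members with 3 transcripts this was so for 1, with a median range of 0.79, beside 64.6% and 1.38 for all such genes. The sources used here do not say how a gene's reads were divided among its transcripts.

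**Figure D3:**
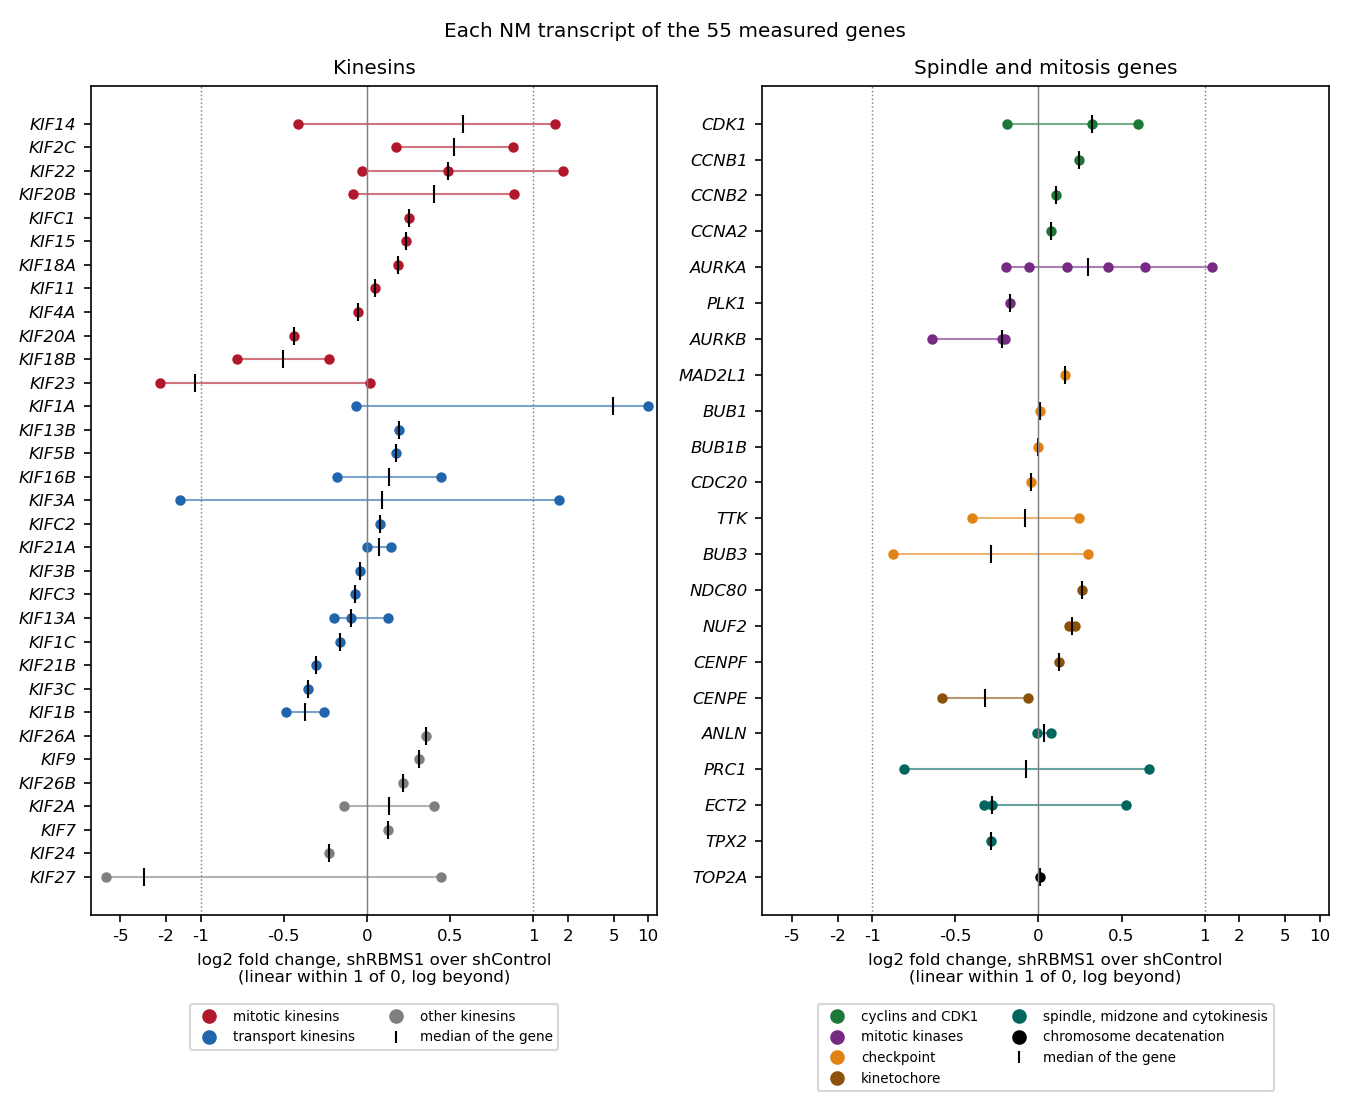
Log2 fold change of every coding transcript (points) of the 55 members, joined by a line per gene, with the gene's median as a black tick; the horizontal axis is linear within 1 of 0 and logarithmic beyond, and dotted lines mark 1. Most single points lie close to 0, and the long lines belong to KIF1A, KIF27, KIF3A, KIF23, KIF14 and KIF22.

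KIF23, the motor of centralspindlin that bundles midzone microtubules for cytokinesis (chr15:69414349-69448427), had the lowest median of the mitotic kinesins, −1.11, at percentile 3.41 of all genes. That median joins unlike transcripts: in the authors' deposited table NM_138555 was at −2.24, 21.2% of control, and NM_004856 at 0.02, 101% of control. The transcripts therefore stood on unlike levels relative to control, and the gene's median describes neither.

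KIF14, a midzone kinesin that binds PRC1 and citron kinase (chr1:200551497-200620751), had the highest median of the class, 0.58. In the authors' deposited table NM_001305792 was at 1.56 and NM_014875 at −0.41, on either side of 0. Both have a coding length of 4947 bases. Their models differ at the 5′ end, where NM_014875 has 324 and 115 untranslated bases that the other lacks. The model linked to NM_001305792 has 0 untranslated bases at its 5′ end, so the difference may lie in how that model was annotated. KIF22, a chromosome-arm kinesin that pushes chromosomes toward the equator, lay at 0.49. For it the authors' deposited table held 1.83, 0.49 and −0.03, the last for NM_007317. The first 2 of these link to the same GENCODE transcript, so no sequence difference could be assigned to them here.

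KIF20B, which acts in late cytokinesis, had a median of 0.40. Its NM_001284259 was at 0.89 in the authors' deposited table and NM_016195 at −0.08. The higher transcript has 120 coding bases that the other lacks, printed here in capitals with 20 bases on either side.
KIF20B NM_001284259, capitals at chr10:89726293-89726412 (plus strand): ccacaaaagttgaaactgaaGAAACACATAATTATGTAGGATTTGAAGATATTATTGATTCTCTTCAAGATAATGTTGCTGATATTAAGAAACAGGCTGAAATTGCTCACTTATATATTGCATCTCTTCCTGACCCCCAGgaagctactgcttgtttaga

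KIF2C, also called MCAK, removes tubulin from microtubule ends to correct faulty attachments. Its transcripts were both above 0 in the authors' deposited table, at 0.88 and 0.17, and the median was 0.53. KIF18B, a plus-end partner of KIF2C, was on the other side with both transcripts, which the authors' deposited table had at −0.23 and −0.78, median −0.51. The mitotic kinesins therefore include motors of the same process, microtubule end control, at opposite signs.

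Transport kinesins lay closer to 0 apart from KIF1A and the transcripts of KIF3A. KIF5B, the broadly expressed conventional kinesin heavy chain (chr10:32009015-32056425), was at 0.17 in the authors' deposited table, 113% of control. Of heterotrimeric kinesin-2, which serves transport in cilia and cytoplasm, the gene medians were 0.09 for KIF3A, −0.04 for KIF3B and −0.36 for KIF3C. Among kinesin-3 motors, KIF13B was at 0.20 in the authors' deposited table, KIF1C at −0.16, and the medians of KIF16B, KIF13A and KIF1B were 0.14, −0.10 and −0.37. Both KIF1B transcripts were below 0 in the authors' deposited table, at −0.26 for NM_183416 and −0.48 for NM_015074. The kinesin-4 motors KIF21A and KIF21B stood at 0.07 and −0.30. The C-terminal motors KIFC2 and KIFC3 stood in the authors' deposited table at 0.08 and −0.07.

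KIF3A (chr5:132688812-132737546) had transcripts on opposite sides beyond 1. NM_007054 was at −1.51 in the authors' deposited table, 35.2% of control, and NM_001300792 at 1.69, 322% of control. The coding parts differ by 9 bases, printed below in capitals, which only the higher transcript holds. The larger difference is at the 3′ end: the model of NM_007054 has a 3′ untranslated region (UTR) of 4006 bases and that of NM_001300792 has 1004, the longer one by a 3′ extension of 3002 bases. These lengths are of the linked models, and the RefSeq gene interval given above reaches farther in the 3′ direction than either.
KIF3A NM_001300792, capitals at chr5:132706451-132706459 (minus strand): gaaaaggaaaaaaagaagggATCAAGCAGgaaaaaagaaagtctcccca

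KIF1A, a kinesin-3 motor known for synaptic vesicle precursors in neurons (chr2:240713767-240821403), was the highest member with a median of 4.90. The authors' deposited table had NM_004321 at 9.88 and NM_001244008 at −0.07. No transcript of that table lay beyond 10 and 109 lay between 9 and 10. Without a level for either arm, a value of this size cannot be told apart from a transcript near 0 in the controls. With 7 transport kinesins above 0 and 7 below, the sign of their median rests on single genes, and without transcripts beyond 5 in either direction it was −0.06.

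The 7 measured kinesins outside both classes had a median of 0.13. KIF27, a kinesin-4 relative of the Hedgehog regulator KIF7, had the lowest median of all members, −3.07. In the authors' deposited table NM_001271928 was at −6.59 and NM_017576 at 0.45, and the first lacks 114 and 177 coding bases of the second. KIF7 itself, at the tip of the primary cilium, was at 0.13 in the authors' deposited table. KIF24, which restrains cilium formation, was at −0.23 in the authors' deposited table, KIF26A at 0.36 and KIF26B at 0.22. KIF2A, a microtubule depolymerase of neurons and spindle poles, had a median of 0.13 from 0.40 and −0.14 in the authors' deposited table. KIF9, a ciliary kinesin, had a value of 0.32, from the authors' deposited table, but the sources used here do not say if the counting used strand, which would part it from its antisense gene.

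All 22 spindle genes had a median within 0.5 of 0, from −0.32 for CENPE to 0.32 for CDK1, and the median of the list was 0.01. CDK1 and its cyclins, which drive entry into mitosis, were all 4 above 0, with a median of 0.17. The authors' deposited table had CCNB1 at 0.24, CCNB2 at 0.10 and CCNA2 at 0.08. For the 3 transcripts of CDK1 the authors' deposited table gave 0.60, 0.32 and −0.19, the last for NM_033379, whose coding part is 723 bases long against 894 in NM_001786. By gene value the kinase stood at 125% of control, CCNB1 at 118% and CCNB2 at 107%.

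Mitotic kinases stood on both sides. PLK1, which matures centrosomes and starts mitosis, was at −0.17 in the authors' deposited table, 88.9% of control. AURKB, the kinase of the chromosomal passenger complex, had a median of −0.22, with all 3 transcripts below 0, from −0.64 to −0.20 in the authors' deposited table. AURKA, the spindle pole kinase (chr20:56369390-56392215), had a median of 0.30. Its 6 transcripts ran from −0.19 for NM_198437 to 1.16 for NM_003600 in the authors' deposited table. The 6 link to 4 distinct models, which share a coding length of 1212 bases and differ in untranslated bases alone. NM_198433 and NM_198434 link to the same model, as do NM_198435 and NM_198437, so no sequence difference could be assigned within these pairs.

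Spindle checkpoint genes had a median of −0.03 over 6 genes. MAD2L1, the inhibitor of CDC20, was at 0.16 in the authors' deposited table, and CDC20, the activator of the anaphase-promoting complex, at −0.05. The checkpoint kinase BUB1 and its relative BUB1B stood in the authors' deposited table at 0.01 and −0.01. For TTK, the kinase that starts checkpoint signalling, the authors' deposited table held transcripts at −0.40 and 0.24, median −0.08. BUB3, the scaffold that brings BUB1 to kinetochores (chr10:123154402-123170467), had the widest pair of the checkpoint genes, with a median of −0.29. NM_004725 was at 0.30 in the authors' deposited table and NM_001007793 at −0.87, 54.6% of control.

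Kinetochore genes had a median of 0.16. NDC80 and NUF2, partners in the complex that grips microtubules, were at 0.26 and 0.20, and the NUF2 transcripts were close, at 0.22 and 0.18 in the authors' deposited table. CENPF was at 0.12 in the authors' deposited table. CENPE, itself a kinesin that carries chromosomes to the plate, had both transcripts below 0, and the authors' deposited table put them at −0.06 and −0.58. Genes of the spindle midzone and cytokinesis had a median of −0.18. ECT2, the RhoA activator of the cleavage furrow, had a median of −0.28 while the authors' deposited table put its transcripts at −0.33, −0.28 and 0.53. TPX2, which activates AURKA on the spindle, stood at −0.28 in the authors' deposited table. The ring scaffold ANLN had a median of 0.03, and TOP2A, which untangles sister chromosomes, was at 0.01 in the authors' deposited table.

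PRC1, the bundler of antiparallel midzone microtubules (chr15:90966040-90994535), had a median of −0.07 that again joined unlike transcripts. NM_003981 was at −0.81 in the authors' deposited table, 57.1% of control, and NM_199413 at 0.66, 158% of control. The lower transcript carries a coding exon of 42 bases, in capitals below, which the higher one lacks. The model linked to the higher one starts upstream, with 1134 untranslated bases of its own. Most of these lie outside the RefSeq gene interval given above, so this difference may lie in how that model was annotated. In PRC1 the transcript with the additional coding exon was thus the lower of the pair, and in KIF20B the transcript with the additional exon was the higher.
PRC1 NM_003981, capitals at chr15:90969079-90969120 (minus strand): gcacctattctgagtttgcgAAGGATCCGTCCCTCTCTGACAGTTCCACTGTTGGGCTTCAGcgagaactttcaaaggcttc

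**Figure D4:**
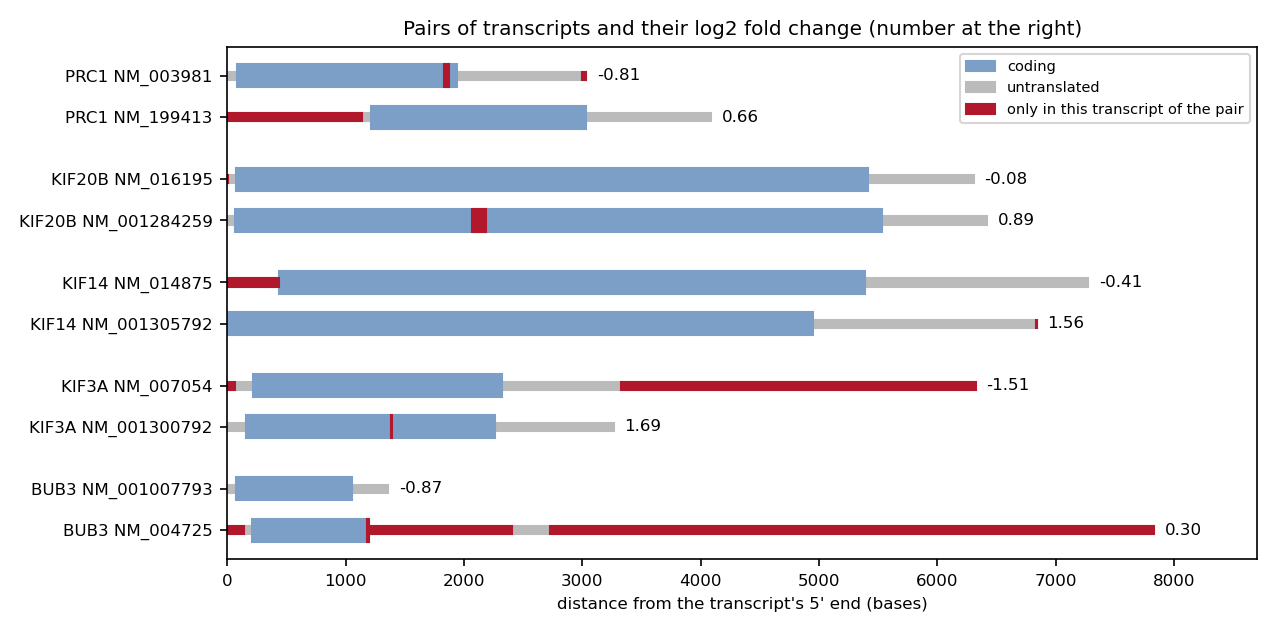
Models of 5 transcript pairs from their 5′ end, in bases, with coding parts in blue, untranslated parts in grey and parts held by 1 transcript of the pair in red; the number at the right is the log2 fold change in the authors' deposited table. The main differences are in a coding exon (PRC1, KIF20B), in the 5′ end (KIF14, PRC1) or in the 3′ UTR (KIF3A, BUB3). The KIF3A pair also differs in 9 coding and 66 5′ untranslated bases, and the BUB3 pair in 16 and 138. For KIF14, 1 of the models has no annotated 5′ UTR. For PRC1, most of the 5′ untranslated bases in the model of NM_199413 lie outside the RefSeq gene interval.

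The 3′ UTRs of members were searched for ATATA, the DNA form of a sequence that RBMS1 recognises. It was present in 8 of 12 mitotic kinesins, 10 of 14 transport kinesins and 16 of 22 spindle genes, beside 6571 of 11185 genes in all (58.7%). Each gene was counted by its longest linked 3′ UTR. The median lengths of these were 584, 2454.5, 669.5 and 1134 bases in the same order, so the shares are not matched for length. The windows of 30 bases below show a site, in capitals, in the members with most of them and in KIF23, read in the direction of the gene.
KIF3A NM_007054, chr5:132696453-132696482 (minus strand): cttttagtctacATATAttaatataacatt
BUB3 NM_004725, chr10:123164675-123164704 (plus strand): tctctgacatttATATAgttcttatgtcca
KIF5B NM_004521, chr10:32011001-32011030 (minus strand): catgcccataaaATATAtccagtcagtact
MAD2L1 NM_002358, chr4:120059380-120059409 (minus strand): ggtttggtgttgATATAgttaaatggtaat
KIF11 NM_004523, chr10:92653879-92653908 (plus strand): gattttaaaagaATATAtatatcagccggg
KIF23 NM_138555, chr15:69448084-69448113 (plus strand): tgtttttttaaaATATAtttcatgtatact

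Presence of the site went with no common direction. Mitotic kinesins with a site had a median of 0.12 and those without 0.37. For transport kinesins these medians were 0.02 and 0.00. Spindle genes with a site stood at 0.09 and those without at −0.20, and all genes at 0.01 and −0.01. KIF5B with 10 sites was at 0.17 in the authors' deposited table, MAD2L1 with 10 at 0.16 and KIF11 with 9 at 0.05. In 6 members the linked transcript models held unequal numbers of sites. The transcript whose model held most was the higher in 4 (BUB3, KIF13A, KIF18B and KIF1B) and the lower in 2 (KIF3A and KIF16B). The KIF3A transcript with 11 sites was the lower one and that with 4 the higher, whereas the BUB3 transcript with 13 sites was the higher one and that with 1 the lower. Both KIF23 transcripts hold the same number of sites, 2. Transcript composition differed between the classes: median GC content was 44.3% in mitotic kinesins, 51.1% in transport kinesins and 41.8% in spindle genes, against 48.8% in all genes. Median lengths were 3970, 5990, 3256 and 3098 bases in the same order, and the part of composition in the difference between classes was not tested.

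By transcript, 3 of the 88 were at or below −1 (KIF27, KIF23 and KIF3A), where 7.93% of all coding transcripts were. At or above 1 were 5 of the 88, from KIF1A, KIF22, KIF3A, KIF14 and AURKA, where 7.77% were. Of these 5 genes, only KIF1A was also beyond 1 by its median.

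Neighbouring parts of the mitotic machinery stood near control as well. The 119 other mitosis genes, listed by complex, had a median of 0.07, with 88.2% within 0.5, beside 77.4% of all genes. At or below −1 was 1 of the 119, where 4.06% of all genes were, and at or above 1 were 0, where 3.62% were. A CHR core lay in a promoter of 54 of the 102 other mitosis genes with a promoter sequence (52.9%), between the spindle genes and the background. Regulators of mitotic entry and members of DREAM had a median of 0.19 over 18 genes, from −0.80 for the transcription factor MYBL2 to 0.51 for the phosphatase CDC25C. The 35 kinetochore and checkpoint genes had a median of 0.14, from −3.28 for SKA1 to 0.75 for MIS12. Spindle microtubule factors had a median of 0.07 over 22 genes, from −0.93 for CIT, the citron kinase, in the authors' deposited table to 0.55 for KNSTRN. The 18 genes of the anaphase-promoting complex and its regulators stood at 0.08, from −0.18 for CDC23 to 0.40 for ANAPC11. Condensin genes and those of the chromosomal passenger complex and cohesion both had a median of −0.02, over 8 and 18 genes. Their ends were NCAPH at −0.40 and NCAPH2 at 0.38, and SMC1A at −0.62 and WAPL at 0.16.

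Partners of the transport kinesins also lay near control by their median. Over 54 genes the median was 0.01, with 79.6% within 0.5, beside 77.4% of all genes. At or above 1 were 4 of the 54, where 3.62% of all genes were, and at or below −1 were 0, where 4.06% were. Of the 45 partners with a promoter sequence, 3 held a CHR core (6.67%). Kinesin light chains and cargo adaptors had a median of −0.01 over 17 genes, between HAP1 at −0.73 and MAPK8IP1, the JNK scaffold that links cargo to kinesin light chains, at 1.59 in the authors' deposited table. Dynein and dynactin genes, the opposing motor, had a median of 0.03 over 22 genes, with DYNC1I1 highest at 2.51 in the authors' deposited table and DYNLT1 lowest at −0.83. Tubulins, the track itself, had a median of 0.01 over 15 genes, from −0.33 for TUBA1A to 1.14 for TUBD1. In the authors' deposited table the TUBA1A transcripts were at −0.82 and 0.16, and those of TUBD1 at 1.20, 1.14 and −0.56. Near-identical tubulin genes may share reads, so single values there are uncertain.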

How the data were processed

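RNA of 3 SW480 libraries (2 shControl, 1 shRBMS1), 48 hours after transduction, was grouped by the labels. Tools and build, per the submitters' processing notes, include STAR 2.5, Cufflinks, Cuffdiff and hg38, with no roles given. The values are log2 fold changes per RefSeq transcript in 1 table that the authors deposited, of 20104 transcripts. Its header gives neither base nor direction. Base 2 was taken from 20 transcripts lying 1, within 1.5e-05, from a repeated value (4 at ln 2, 5 at log10 of 2), and the direction from RBMS1.

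A RefSeq gene table (GRCh38.p14) matched 17865 of 17994 NM transcripts (99.3%), and 129 were left out. Genes were valued by the median over NM transcripts, and 1 was the threshold. Promoters came from RefSeq GRCh38.p14, transcript models from GENCODE 29, the same assembly as hg38, through its RefSeq links. Members and lists were chosen with earlier results of these data known. The rule for names took every member, each other list's highest and lowest gene and RBMS1, with transcripts given singly for the 3 genes whose transcripts lay farthest apart. Other transcripts named were chosen after their values were seen. Alternatives were other thresholds, values per gene, centring, classes and motifs. Python 3.11.15, pandas 2.3.3, numpy 2.4.6 and matplotlib 3.10.9 were used. The gene values were tested on simulated data and the rule for kinesin names on examples, but the motif and transcript searches were not. How the KIF23 transcripts differ in sequence is not reported here.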

Additional observations from a re-analysis of the deposited data

How the results depend on the processing

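Of 56 alternatives, 45 left the value close to that reported (medians within 0.1, counts within 1.5 times) and 11 did not. Several could hardly move a median: the mean equals the median for genes with 1 or 2 transcripts, and centring shifted each gene by 0.0033. The medians of all members, transport kinesins and spindle genes were below 0.1, so a change of sign could count as close. The count of 45 is therefore no measure of robustness. Taking for each gene the transcript nearest 0, the median was −0.0027 for mitotic and −0.085 for transport kinesins, and their difference 0.082, the lowest of a range up to 0.27. With that choice 1 member (KIF3A) was lower by at least 1 and 0 were higher. With the most changed transcript 5 were higher. With a threshold of 2, 1 member was lower, and with 0.5, 3 were higher. Counting transcripts gave 5 higher of 88, where 7.77% of all coding transcripts were. Without transcripts beyond 5 in either direction, chosen after seeing the data, 1 member was lower and 0 were higher. The transport median lay at −0.06 there and also with genes of 1 transcript alone. Shares of all genes in each direction were not computed for the nearest or most changed transcript, for thresholds of 2 and 0.5, or without transcripts beyond 5. The counts of members under those settings therefore stand without a background. The 2 motif alternatives, TTTGAA alone and positions within 60 bases, were also chosen after seeing the data and gave 9 and 10 mitotic kinesins.

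No paired analysis was possible because the table holds no value per library and the groups share replicate number 1 alone. Libraries were not left out in turn, since the table has no value for each. Depth, spread between libraries and the level of each transcript are unknown, which limits every value above.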

Other observations

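Transcripts far apart also occurred in mitosis genes outside the rule. SKA1, a kinetochore gene that tracks microtubule ends, had NM_001039535 at 0.58 and NM_145060 at −7.14 in the authors' deposited table, and a median of −3.28. For the condensin gene NCAPH, the authors' deposited table gave −0.06, −0.40 and −1.77. The 8 transcripts of ANAPC11, the RING subunit of the anaphase-promoting complex, lay in the authors' deposited table between −2.21 and 2.65.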
